A study of Mus musculus with 4 samples.

Results

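Vldlr and its relatives in the low density lipoprotein (LDL) receptor family were followed through the cells of the mouse retinal pigment epithelium (RPE) and choroid, in tissue whose Vldlr gene was intact or disrupted. The members were chosen by symbol, as the genes named Vldlr, Lrp8, Lrp1, Lrp1b, Lrp2, Lrp4, Lrp5, Lrp6 and Sorl1, and make up 9 of the 32285 genes counted. There were 4 single-cell libraries, 1 for each group. These were wild type (WT) at 1 month of age, Vldlr-/- (the knockout, KO in the plots) at 1 month, wild type at 2 months and Vldlr-/- at 2 months. The allele, the part of Vldlr that was disrupted, the strain and the number of animals behind each suspension are not given in the sources used here. With 1 library per genotype at each age, no test between genotypes is possible within an age, and none was run over both ages. Every interval below is a 95% interval for counting error alone.

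Members of this family are transmembrane receptors that bind ligands through clusters of LDL class A repeats and carry them into the cell by endocytosis. Several also signal from the membrane. Vldlr and Lrp8 (also called ApoER2) are reelin receptors, Lrp5 and Lrp6 are Wnt co-receptors, and Lrp4 is the agrin receptor of the nerve-muscle synapse. In the eye, mice without Vldlr are known for vessels that grow from the retina toward the subretinal space, and the RPE is the pigmented layer that nourishes the photoreceptors and takes up their shed outer segments.

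The libraries held 1696 to 2540 barcodes, of which 1140 to 2047 had at least 300 genes and at most 30% mitochondrial counts. Each molecule is counted once by a unique molecular identifier (UMI), and the libraries held 11194301 to 23070271 UMIs. Levels are UMIs per 1000000 UMIs of the same cells (CPM). RPE-like cells numbered 215 and 149 at 1 month (wild type, then knockout) and 1348 and 590 at 2 months, with median depths of 1964, 1728, 8092 and 9554 UMIs. They carried 7 of 8 RPE markers at 1 month (Best1 was at 0) and all 8 at 2 months, at 109000, 106000, 65900 and 63200 CPM summed over the list. Ttr, a marker used to name RPE-like clusters, was by itself at 78800, 76700, 39100 and 37300 CPM. The 1-month and 2-month files were written by different software versions, so the ages are set side by side and are not compared. At 1 month 1 cluster (numbered 0) held 181 and 129 of these cells, while at 2 months they spread over 5 clusters (0, 3, 4, 5 and 9). Only 1 barcode was shared between libraries.

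The upstream sequences of 3 members are given, chosen only because their starts match in 2 annotations. Any link between these sequences and the cells that carry the genes was not tested. RefSeq (GRCm38.p6) windows matched 5 of the 9 members by symbol, with no entry used for Lrp1b, Lrp4, Lrp5 or Lrp6. In 3 of the 5 the RefSeq start equals the GENCODE start, and the 250 bases before it are given 5′ to 3′ on the gene's own strand. Capitals mark matches to TAATTA (a homeodomain core), TAATCC (the OTX2 and CRX type of site), GGGCGG (the GC box) or CACGTG (the E box) on either strand. These motifs were chosen with the sequences in view, and none of the marked stretches overlaps another.
Vldlr, chr19:27216234-27216483, plus strand: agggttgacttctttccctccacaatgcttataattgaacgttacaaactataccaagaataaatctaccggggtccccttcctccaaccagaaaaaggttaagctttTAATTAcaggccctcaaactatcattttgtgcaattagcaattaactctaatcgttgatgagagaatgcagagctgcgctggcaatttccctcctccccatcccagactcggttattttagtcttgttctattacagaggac
Lrp1, chr10:127621149-127621398, minus strand: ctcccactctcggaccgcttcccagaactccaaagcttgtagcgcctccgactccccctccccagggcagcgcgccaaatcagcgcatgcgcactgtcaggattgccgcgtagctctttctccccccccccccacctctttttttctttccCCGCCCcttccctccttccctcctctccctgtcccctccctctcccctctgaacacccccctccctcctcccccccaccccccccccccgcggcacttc
Sorl1, chr9:42124298-42124547, minus strand: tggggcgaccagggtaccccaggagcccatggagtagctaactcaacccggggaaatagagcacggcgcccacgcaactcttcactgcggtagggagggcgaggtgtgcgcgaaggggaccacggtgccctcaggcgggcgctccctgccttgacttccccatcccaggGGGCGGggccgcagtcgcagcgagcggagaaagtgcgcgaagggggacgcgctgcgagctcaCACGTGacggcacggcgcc
The Vldlr window has a GC content of 41.6%, below the median of 52.4% over all 32851 windows of this length. Its single match is TAATTA, 142 bases before the start, a motif held by 4.84% of all windows. The Lrp1 window (67.2% GC) has a GC box in reverse, found in 32.7% of windows. Sorl1 (69.6% GC) has a GC box and, 19 bases before the start, an E box, which 6.02% of windows hold. TAATCC, held by 6.25% of windows, was in none of the 3. A match is a string of letters and was not shown to be bound.

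Vldlr (ENSMUSG00000024924, GRCm38 chromosome 19, 27216484 to 27254231, plus strand, 19 exons in its longest coding transcript) was highest in 2 of the named classes. Rod-like cells (photoreceptors for low light) had the highest wild-type level, and RPE-like cells came next. In wild-type rods the level was 289 CPM at 1 month (136 UMIs, interval 243 to 342) and 285 CPM at 2 months (228 UMIs, 249 to 324). In wild-type RPE-like cells it was 141 CPM (72 UMIs, 110 to 177) and 182 CPM (2634 UMIs, 175 to 189). At both ages the intervals of rods and RPE did not overlap.

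All other named classes with at least 30 cells lay far below. Wild-type fibroblast-like cells had 14 UMIs at 1 month (6.23 CPM) and 8 at 2 months (5.76 CPM). Endothelial-like cells had 8 UMIs (8.62 CPM) and macrophage-like cells 1 UMI (2.28 CPM) at 2 months. The intervals of endothelial-like, fibroblast-like and macrophage-like cells overlapped, so their order is open to counting error. Mural-like cells, the contractile cells around vessels, had 19 UMIs (30.5 CPM), above these 3 classes, and RPE RNA at the level of RPE markers in those cells would bring 9.74 of the 19. A shallow unnamed cluster with rod markers had 350 CPM (21 UMIs) in the wild type and 319 CPM (45 UMIs) in the knockout at 1 month. Another unnamed cluster, led by the pigment cell genes Pmel and Mlana but also carrying RPE markers, had 124 CPM (154 UMIs in 109 cells) and 16.3 CPM (2 UMIs in 18 cells) at 2 months. No Vldlr UMI was found in 255 B cell-like cells or in 326 T or NK cell-like cells of the wild type at 1 month. A floor of 3 counts would be 1.94 and 0.988 CPM there, and the upper ends of the 95% Poisson intervals were 2.39 and 1.21 CPM.

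**Figure D1:**
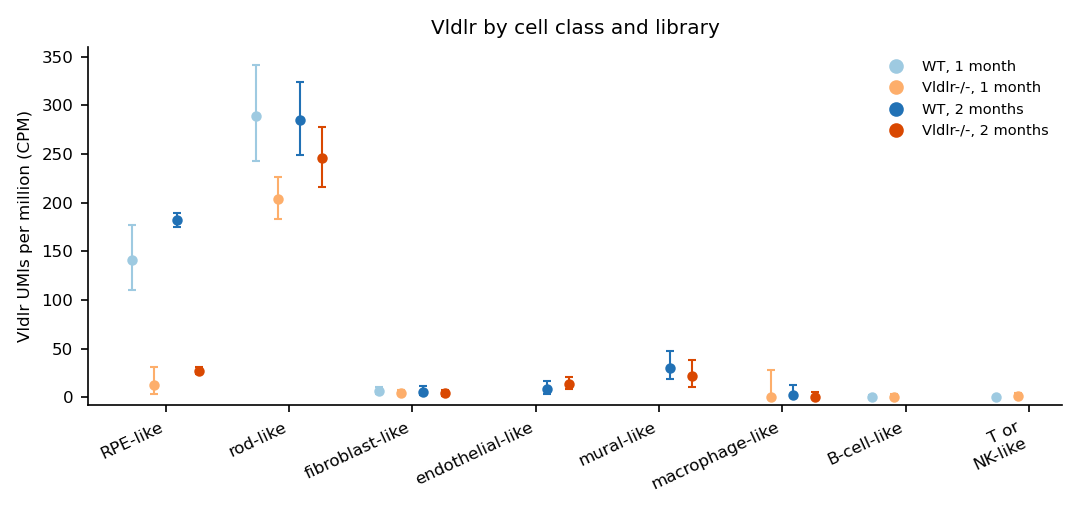
Level of Vldlr in CPM (vertical axis) in named cell classes (horizontal axis), 1 point per library with at least 30 cells of the class. Bars are the 95% Poisson interval. Melanocyte-like cells and unnamed clusters are not shown. Wild-type and knockout points are far apart in RPE-like cells (141 and 12.3 CPM at 1 month, 182 and 27.2 CPM at 2 months). They are closer in rod-like cells (289 and 204, then 285 and 246), with intervals that do not overlap at 1 month.

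In the knockout, Vldlr was lower in RPE-like cells at both ages and much closer to wild type in rods. RPE-like cells of the knockout held 4 UMIs at 1 month (12.3 CPM, 3.34 to 31.4) against 72 in the wild type, a log2 ratio of -3.36 (-5.44 to -2.10) on sums with 0.5 counts added. At 2 months they held 216 UMIs (27.2 CPM, 23.7 to 31) against 2634, a log2 ratio of -2.74 (-2.95 to -2.54). Rods of the knockout held 348 UMIs at 1 month (204 CPM, 183 to 226), a log2 ratio of -0.51 (-0.80 to -0.21). At 2 months they held 246 UMIs (246 CPM, 216 to 278), a log2 ratio of -0.21 (-0.48 to 0.05). The intervals of RPE and rods do not overlap at either age, and the difference between the cell types was not tested beyond counting error. Since the disrupted part of the gene is not given, these counts may come from outside it, and RNA that remains says nothing about protein.

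The share of cells with a Vldlr UMI gave the same order of genotypes within RPE-like cells. With cells thinned to 1000 UMIs, and shallower cells left out, the expected share was 12.3% of 181 wild-type cells and 1.07% of 106 knockout cells at 1 month (34 and 43 cells left out). At 2 months it was 17.3% of 1310 and 1.98% of 546 (38 and 44 left out). Unthinned shares were 23.7%, 2.01%, 68.5% and 20.5%. In rods the thinned share was 25.2% and 17.9% at 1 month and 18% and 11.6% at 2 months. For comparison, B cell-like cells at 1 month gave 0% and 0.0572% and T or NK cell-like cells 0% and 0.156% after the same thinning, at unthinned median depths of 5997 to 9316 UMIs.

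The sum over the tissue did not follow the RPE at 1 month. Summed over all kept cells, Vldlr was higher in the knockout at 1 month, with 416 UMIs (39.3 CPM) against 253 (24.6 CPM) in the wild type. Rod-like cells made up 19.2% of kept knockout cells against 6.88% in the wild type, and 83.7% of the knockout's Vldlr UMIs were in them against 53.8%. At 2 months the order was reversed, with 506 UMIs (34 CPM) in the knockout against 3092 (142 CPM), and RPE-like cells held 42.7% and 85.2% of these. The neural retina was taken off before the cells were dissociated, and the number of rods cannot be told apart from how much of it remained. In summed counts, fewer cells of a type and less RNA per cell cannot be told apart either.

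The Vldlr RNA left in knockout RPE-like cells at 2 months was at a higher level in barcodes rich in Malat1, a long noncoding RNA that stays in the nucleus. Barcodes with at least 1000 CPM of Malat1 are called rich here and the others poor. At 1 month knockout RPE-like cells had 14 CPM in rich (1 UMI, 0.353 to 77.7) and 11.8 CPM in poor barcodes (3 UMIs, 2.43 to 34.4). Those intervals overlap, so no difference can be read at that age. Among RPE-like cells at 2 months, Malat1-poor cells had 197 CPM in the wild type (2220 UMIs in 1187 cells) and 16.2 CPM in the knockout (68 UMIs in 422 cells), a log2 ratio of -3.60 (-3.98 to -3.26). Malat1-rich cells had 128 CPM (414 UMIs, 161 cells) and 39.5 CPM (148 UMIs, 168 cells), a log2 ratio of -1.69 (-1.98 to -1.42). Malat1-rich cells held 68.5% of the knockout's Vldlr UMIs in RPE-like cells, against 47.1% of all UMIs there (22.3% in the wild type). They were 28.5% of these cells (11.9% in the wild type). The share of a member's knockout UMIs in Malat1-rich cells ran from 30.1% (Lrp2) to 67.2% (Lrp4) among the other members.

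The same split in rods, added after seeing the data, went the same way. Malat1-poor rods had 265 CPM in the wild type (31 UMIs, 39 cells) and 76.6 CPM in the knockout (12 UMIs, 50 cells) at 1 month, a log2 ratio of -1.75 (-2.88 to -0.79). Malat1-rich rods had 298 CPM (105 UMIs) and 216 CPM (336 UMIs), a log2 ratio of -0.47 (-0.78 to -0.13). At 2 months Malat1-poor rods had 14 UMIs in 44 wild-type cells and 1 UMI in 23 knockout cells (127 and 18.1 CPM), with a log2 ratio of -2.28 (-8.21 to -0.10). Malat1-rich rods had 310 and 259 CPM, with a log2 ratio of -0.26 (-0.53 to 0.01). Rods poor in Malat1 were few, with under 30 knockout cells in either subset at 2 months. The intervals of poor and rich rods nearly meet at 1 month and overlap at 2 months.

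**Figure D2:**
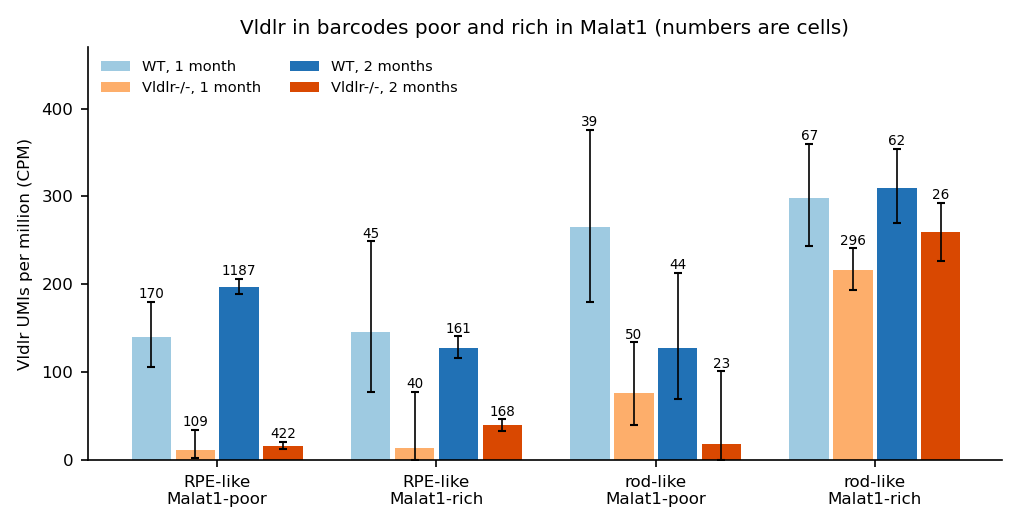
Level of Vldlr in CPM (vertical axis) in RPE-like and rod-like cells that are poor or rich in Malat1 (horizontal axis), with 1 bar per library, 95% Poisson intervals and the number of cells above each bar. In the knockout at 2 months the level is 16.2 CPM in Malat1-poor and 39.5 CPM in Malat1-rich RPE-like cells, and 18.1 and 259 CPM in the corresponding rods.

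Vldlr stood apart from the other members in this respect. In RPE-like cells at 2 months its log2 ratio was 1.91 higher in Malat1-rich than in Malat1-poor cells, and it was 1 of 8 members tested whose ratios lay at least 1 apart in that direction. Among all genes tested in the same way 2.04% did so, with a median difference of 0.05. For the other 7 the difference ran from -0.03 (Lrp8) to 0.60 (Lrp4). In rods at 1 month the difference for Vldlr was 1.29, against 2.63% of genes at 1 or more and a median of 0.01, and no other member had enough UMIs.

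Within the RPE-like clusters at 2 months, wild-type Vldlr ranged from 129 CPM (cluster 9) to 252 CPM (cluster 4). The knockout ranged from 2.41 CPM in cluster 0, a single UMI in 138 cells against 133 UMIs in 194 wild-type cells, to 40.4 CPM in cluster 9. Cluster 9, with the highest median depth of the 5 (23899.5 UMIs), held 147 of the 216 knockout UMIs. The log2 ratio ran from -5.27 in cluster 0 over -3.88, -3.53 and -3.10 in clusters 3, 4 and 5 to -1.67 in cluster 9. It was negative in each of the 5, with intervals that excluded 0.

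Markers of rods are given beside these values because rods carry Vldlr. All 10 rod markers had UMIs in RPE-like cells of every library, at a summed 334, 683, 52.5 and 33.2 CPM in the order above, against 64400, 73200, 52400 and 60000 CPM in rods. Rod RNA at that level would bring 0.62 of the 4 knockout UMIs at 1 month. Its subtraction moved the log2 ratio from -3.36 to -3.55 at 1 month and from -2.74 to -2.75 at 2 months. Genes that neighbour Vldlr on chromosome 19 and had enough UMIs did not share its difference. In RPE-like cells at 2 months the log2 ratios were 0.50 (Kank1) and 0.08 (Smarca2) on one side and 0.08 (Kcnv2) and 0.52 (Pum3) on the other.

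Across the family in RPE-like cells, Vldlr was the only member at least 2-fold apart between genotypes at either age with the settings used here. At 1 month other settings brought in further members, all higher in the knockout. Lrp2 (log2 ratio 1.31) and Sorl1 (1.55) passed with at least 1000 genes per barcode, Lrp2 (1.04) at Leiden resolution 2.0 and Sorl1 (1.07) in Malat1-poor cells. In Malat1-rich cells at 1 month Lrp1 (1.08) was the 1 member with enough UMIs, and it passed. At 1 month 6 of the 9 members had at least 30 UMIs over both libraries, 1 was at least 2-fold lower in the knockout and 0 higher. Over 3275 genes, 2.41% were at least 2-fold lower and 3.57% higher. At 2 months all 9 had enough UMIs, with 1 lower and 0 higher, against 0.985% and 3.08% of 11773 genes. The median log2 ratio of all genes was 0.01 at 1 month and 0.07 at 2 months.

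**Figure D3:**
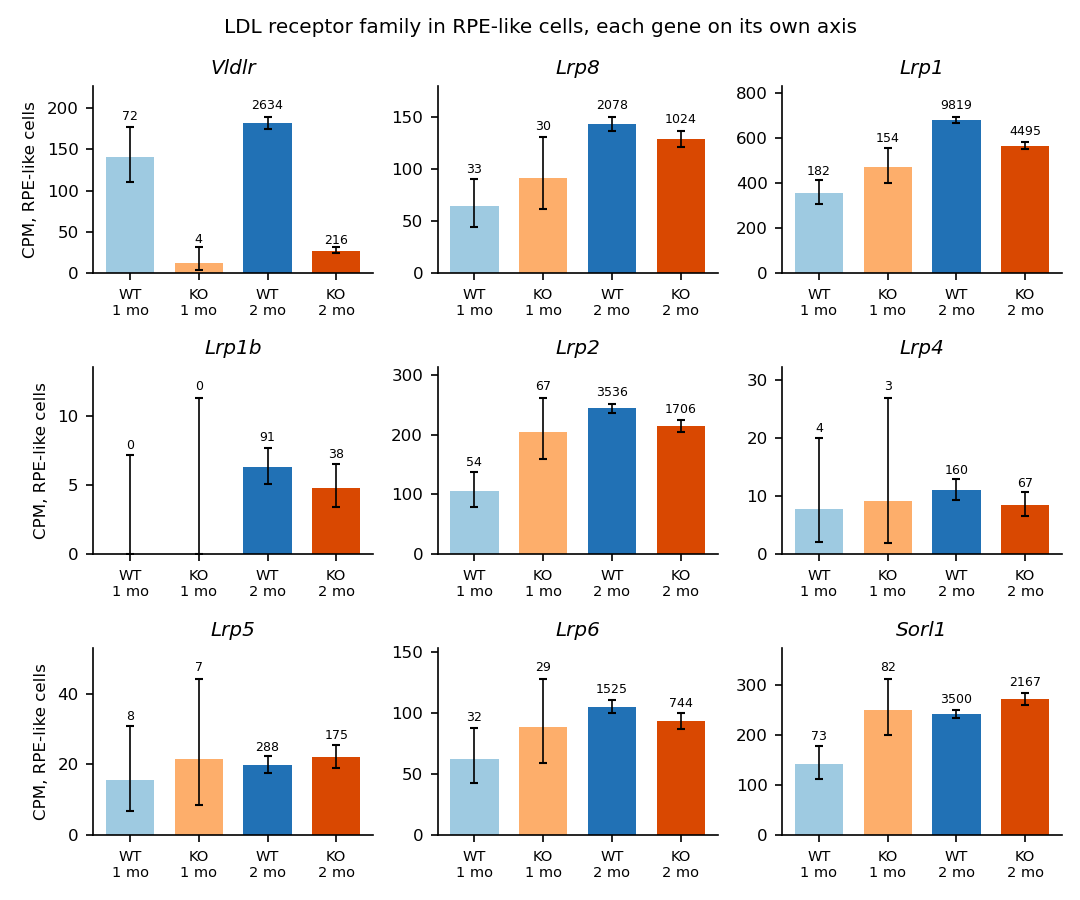
Level of each member in RPE-like cells in CPM (vertical axes, 1 scale per gene) in the 4 libraries, with 95% Poisson intervals and the UMI count above each bar. KO stands for Vldlr-/- and mo for month. Vldlr alone has knockout bars far below the wild type at both ages, with 4 against 72 and 216 against 2634 UMIs.

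Lrp8 (chromosome 4, 107802261 to 107876840, plus strand), which shares the reelin ligand and the Dab1 adaptor with Vldlr, was found mainly in the RPE. RPE-like cells had 33 and 30 UMIs at 1 month (64.5 and 91.9 CPM, wild type then knockout) and 2078 and 1024 at 2 months (143 and 129 CPM). The log2 ratio at 2 months was -0.16, and at 1 month it was 0.51 with an interval that includes 0. Rods came next in the wild type, at 8.51 and 16.2 CPM. No other named wild-type class of at least 30 cells passed 10 CPM, while the unnamed cluster led by Pmel and Mlana had 82.1 CPM (102 UMIs in 109 cells) at 2 months. The genes whose profile was most like that of Lrp8 over the 11 class and library points of the wild type were Mapk6 (r = 0.946), Mcrip2 (0.945) and Bpnt1 (0.934) among 12738 genes compared. These r values, here and below, are Pearson correlations of log2(CPM + 1) and describe points that share libraries and depth. They do not measure the size of a difference, so a gene found in every class can rank high. Mapk6, for example, ran from 14.9 to 183 CPM.

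For Vldlr the most similar genes over the same points were Kpna6 (r = 0.978), Lurap1l (0.977), Ddb1 (0.977), Bcat1 (0.975) and Slc38a3 (0.973). Kpna6 (12.8 to 51.1 CPM) and Ddb1 (29.8 to 185 CPM) were found at every point, also in the B cell-like and T or NK cell-like cells without Vldlr. Slc38a3, a glutamine transporter, was closer in its range, with 206 and 171 CPM in rods, 119 and 136 CPM in the RPE and at most 6.41 CPM elsewhere. Lrp8 followed Vldlr with r = 0.721 and Lrp2 with r = 0.777.

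Lrp2, or megalin (chromosome 2, 69424340 to 69586065, minus strand), is a large endocytic receptor of absorptive epithelia. Among named classes it was found mainly in the RPE, at 106 CPM (54 UMIs) at 1 month and 244 CPM (3536 UMIs) at 2 months in the wild type. Rods followed at 8.51 and 18.7 CPM, and at 2 months mural-like, endothelial-like, fibroblast-like and macrophage-like cells lay between 2.28 and 11.2 CPM. RPE RNA in mural-like cells would bring 13.1 Lrp2 UMIs where 7 were counted. Of the unnamed clusters, the one led by Pmel and Mlana had 137 CPM (170 UMIs in 109 wild-type cells) and 155 CPM (19 UMIs in 18 knockout cells) at 2 months. Another, led by Gpx3, Penk, Optc and Crhbp, had 113 CPM (130 UMIs in 78 wild-type cells) and 59.5 CPM (21 UMIs in 18 knockout cells) at 2 months. In knockout RPE-like cells Lrp2 was at 205 CPM (67 UMIs) at 1 month, a log2 ratio of 0.96 (0.42 to 1.50), and at 214 CPM (1706 UMIs) at 2 months, a log2 ratio of -0.19 (-0.27 to -0.10). Split by Malat1, the 2-month log2 ratio was 0.02 in poor and 0.16 in rich cells, both intervals including 0, and 0.23 in cluster 0 alone. The genes most like Lrp2 were Vat1l (r = 0.964), Tshr (0.958) and Cspg5 (0.956).

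Lrp1 (chromosome 10, 127538161 to 127621148, minus strand, 89 exons in its longest coding transcript) takes up many proteases, protease inhibitors and lipoproteins. It had the most UMIs of the 9, 24403 over all kept cells, and was highest in fibroblast-like cells, with 657 and 765 CPM in the wild type at 1 and 2 months. RPE-like cells followed with 356 CPM (182 UMIs) and 678 CPM (9819 UMIs). At 2 months macrophage-like (219 CPM), mural-like (199 CPM) and endothelial-like cells (143 CPM) came after these, with overlapping intervals between neighbours. Rods had 10.6 and 12.5 CPM, and B cell-like and T or NK cell-like cells 3.88 and 1.32 CPM. Gaa (r = 0.975), Cd99l2 (0.973) and Nenf (0.955) were the most similar genes, and among members Lrp5 (0.860) and Lrp6 (0.783).

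In knockout RPE-like cells Lrp1 was at 472 CPM (154 UMIs) at 1 month, a log2 ratio of 0.41 (0.09 to 0.73), and at 565 CPM (4495 UMIs) at 2 months, a log2 ratio of -0.26 (-0.31 to -0.21). Split by Malat1, the 2-month log2 ratio was -0.12 in poor cells (766 and 706 CPM) and 0.13 in rich cells (372 and 407 CPM). In cluster 0 alone the 1-month log2 ratio was -0.02. In fibroblast-like cells it was 0.14 (0.04 to 0.23) at 1 month and -0.02 (-0.13 to 0.09) at 2 months.

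Macrophage-like cells at 2 months had more Lrp1 in the knockout, with 273 UMIs in 55 cells (398 CPM) against 96 in 57 (219 CPM), a log2 ratio of 0.86 (0.52 to 1.21). None of the 4 members tested in them was at least 2-fold apart, against 7.09% of genes. Knockout macrophage-like cells were deeper (median 10723 against 6278 UMIs), more often Malat1-rich (92.7% against 82.5%) and carried less RPE RNA (0.773% against 4.08% of the RPE marker level). The part of these in the result was not tested.

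Lrp1b (chromosome 2, 40595246 to 42653624, minus strand), a close relative of Lrp1, had the fewest UMIs, 275 in all. Only 3 of them came from the 1-month libraries. At 2 months wild-type mural-like (19 UMIs, 30.5 CPM) and fibroblast-like cells (42 UMIs, 30.2 CPM) led. Knockout fibroblast-like cells had 21 UMIs (10.6 CPM), a log2 ratio of -1.50 (-2.35 to -0.73). That made Lrp1b the 1 of 6 members tested there that was at least 2-fold apart, against 3.77% of genes. The UMIs lay in few cells, 14 of 126 in the wild type (11.1%, 6.21 to 17.9) and 13 of 165 in the knockout (7.88%, 4.26 to 13.1). These shares have overlapping intervals, and the interval of the ratio does not allow for several UMIs in the same cell. In mural-like cells 19 UMIs, held by 5 of 55 cells, stood against 1, too few for the 30-UMI filter. RPE-like cells had 6.28 and 4.78 CPM at 2 months (91 and 38 UMIs) and 0 at 1 month, where 3 UMIs would be 5.86 and 9.19 CPM.

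Among named classes with at least 30 cells, the Wnt co-receptor Lrp5 led in endothelial-like or fibroblast-like cells and Lrp6 in fibroblast-like cells. Lrp5 (chromosome 19, 3584828 to 3686564, minus strand) was highest in endothelial-like cells at 2 months, with 84 UMIs in the wild type (90.5 CPM) and 139 in the knockout (93.1 CPM). Fibroblast-like cells had 59.2 CPM at 1 month and 46.8 CPM at 2 months in the wild type. RPE-like cells had 15.6 and 19.9 CPM (8 and 288 UMIs) and rods 0 and 3.75 CPM. In knockout RPE-like cells the level was 21.5 CPM (7 UMIs) and 22 CPM (175 UMIs), with a log2 ratio of 0.15 (-0.13 to 0.42) at 2 months. Fkbp9 (r = 0.973), Adgra3 (0.970) and Serpinb6a (0.964) had the most similar profiles.

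Lrp6 (chromosome 6, 134446476 to 134566965, minus strand) was widespread, with at least 28.7 CPM in every wild-type class of at least 30 cells. Fibroblast-like cells led with 355 CPM at 1 month and 281 CPM at 2 months, and T or NK cell-like cells had the lowest level at 28.7 CPM. At 2 months macrophage-like (164 CPM) and endothelial-like cells (137 CPM) followed with overlapping intervals, and mural-like cells were lowest (97.8 CPM). RPE-like cells had 62.5 CPM (32 UMIs) and 105 CPM (1525 UMIs), with intervals that overlapped those of rods (74.5 and 104 CPM). In the knockout RPE the values were 88.9 CPM (29 UMIs) and 93.5 CPM (744 UMIs), with log2 ratios of 0.51, whose interval includes 0, and -0.17 (-0.30 to -0.04). At 2 months it was -0.33 in Malat1-poor and 0.01 in Malat1-rich cells. Knockout fibroblast-like cells had less Lrp6 at both ages by a small amount, with log2 ratios of -0.27 (-0.41 to -0.12) and -0.24 (-0.44 to -0.05). P4hb (r = 0.949), Tmem150a (0.942) and Rgl1 (0.933) were most like it.

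Lrp4 (chromosome 2, 91457511 to 91513779, plus strand) was a gene of rods and fibroblasts among named classes. Wild-type rods had 21.3 and 40 CPM (10 and 32 UMIs) and fibroblast-like cells 28.1 and 31 CPM (63 and 43 UMIs), with overlapping intervals at both ages. The unnamed cluster led by Gpx3, Penk and Optc had 68.4 CPM (79 UMIs) in the wild type and 99.2 CPM (35 UMIs) in the knockout. RPE-like cells had 4 and 3 UMIs at 1 month (7.82 and 9.19 CPM) and 160 and 67 at 2 months (11 and 8.42 CPM), a log2 ratio of -0.38 (-0.82 to 0.03). It was -0.90 (-1.66 to -0.26) in Malat1-poor and -0.30 (-0.92 to 0.31) in Malat1-rich cells. Fibroblast-like cells at 1 month had a log2 ratio of 0.53 (0.08 to 1.01). Echdc1 (r = 0.953), Tmem184c (0.946) and Dync2h1 (0.935) were nearest in profile.

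Sorl1 (chromosome 9, 41964720 to 42124297, minus strand), a sorting receptor that joins LDL class A repeats to a VPS10 domain, was shared by the RPE and white blood cells. At 1 month wild-type B cell-like cells had 153 CPM (237 UMIs) and RPE-like cells 143 CPM (73 UMIs), with overlapping intervals, and T or NK cell-like cells 63.6 CPM. An unnamed cluster led by Ear2, Lst1 and Lyz2 had 186 CPM (277 UMIs). At 2 months the RPE led with 242 CPM (3500 UMIs), followed by macrophage-like (98.1 CPM) and mural-like cells (64.1 CPM). Rods had 2.13 and 7.49 CPM.

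In the knockout RPE Sorl1 was higher at both ages. It was at 251 CPM (82 UMIs) at 1 month, a log2 ratio of 0.82 (0.34 to 1.29), and at 272 CPM (2167 UMIs) at 2 months, a log2 ratio of 0.17 (0.10 to 0.25). At 2 months the log2 ratio was 0.34 (0.25 to 0.43) in Malat1-poor and 0.67 (0.48 to 0.85) in Malat1-rich cells, larger in each than in their sum. The direction turned in Malat1-rich cells at 1 month (-0.29) and in cluster 0 alone at 2 months (-0.22). The genes most like Sorl1 were Slc35c2 (r = 0.901), Prps2 (0.894) and Rilpl2 (0.883), and its r with Vldlr was -0.255.

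**Figure D4:**
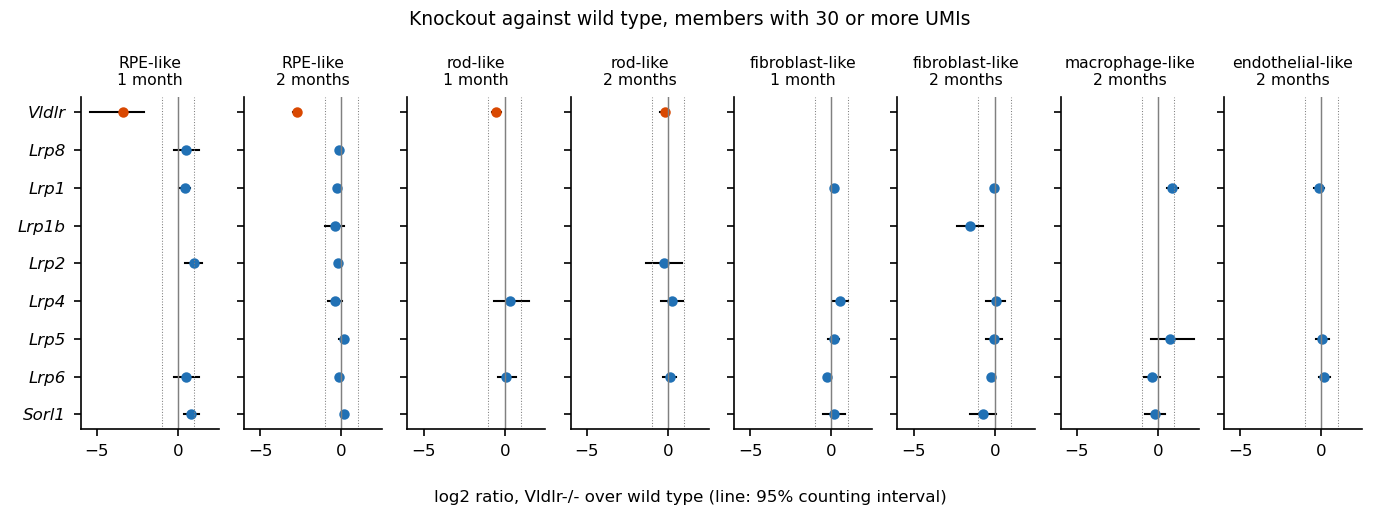
Log2 ratio of knockout over wild type (horizontal axes) for members with at least 30 UMIs over both libraries (vertical axis), 1 panel per cell class and age, with 95% counting intervals, a solid line at 0 and dotted lines at 2-fold. Vldlr lies at -3.36 and -2.74 in RPE-like cells and at -0.51 and -0.21 in rod-like cells, and Lrp1b in fibroblast-like cells at 2 months lies at -1.50.

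Outside the RPE few members differed by much between genotypes. None of the members tested was at least 2-fold apart in rods at 1 month (3 tested, against 8.48% of genes) or 2 months (4 tested, 5.81%). The same held for fibroblast-like cells at 1 month (5 tested, 3.48%), endothelial-like (3 tested, 5.2%) and mural-like cells (5 tested, 4.89%) at 2 months. In B cell-like cells at 1 month 2 members were tested and 0 were apart, against 2.32% of genes. Sorl1 was at 153 and 197 CPM there, a log2 ratio of 0.36 (0.11 to 0.61), and Lrp6 at 32.4 and 20.2 CPM, a log2 ratio of -0.67 (-1.37 to -0.01). T or NK cell-like cells at 1 month had 2 tested and 0 apart, against 2.74%, with Sorl1 at 63.6 and 60.3 CPM.

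**Figure D5:**
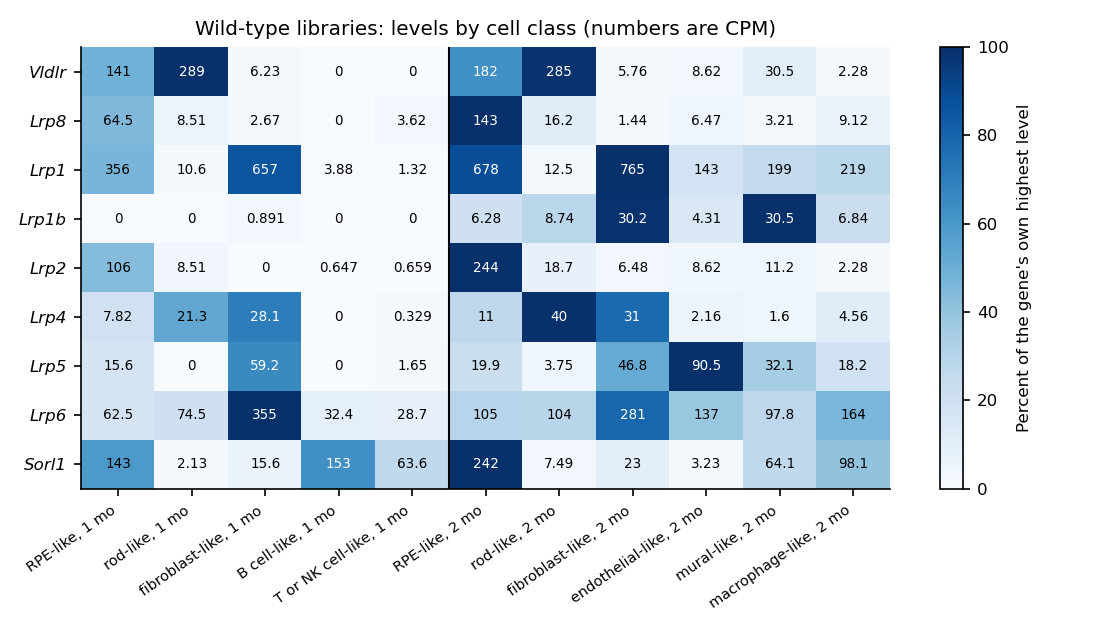
Levels of the 9 members (rows) in the named cell classes of the wild-type libraries with at least 30 cells (columns, 1 month left of the line, 2 months right of it). Numbers are CPM and the shade is the percent of each gene's own highest level, so shades compare classes within a gene. Vldlr peaks in rods, Lrp8 and Lrp2 in the RPE, Lrp1 and Lrp6 in fibroblast-like cells and Lrp5 in endothelial-like cells.

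The partners of these receptors were read in RPE-like cells from 7 lists, with the same filter of 30 UMIs and the same 2-fold rule. No gene of theirs passed that rule alike at 1 and 2 months, so the 2 with the most UMIs in each list are named. Here and in the paragraphs below, ratios of partner genes are given over all RPE-like cells, without a split by Malat1. At 2 months Malat1-rich cells held 47.1% of knockout and 22.3% of wild-type UMIs. The part of this in the ratios was not tested. Of 21 ligands and secreted partners counted in the files, 8 were tested at 1 month, with 1 at least 2-fold higher, 0 lower and a median log2 ratio of 0.23, beside 3.57% higher, 2.41% lower and a median of 0.01 over all genes. At 2 months 15 were tested, with 0 and 0 and a median of -0.08, beside 3.08%, 0.985% and 0.07 over all genes. Ttr (transthyretin, an RPE marker here as well) had log2 ratios of -0.04 and -0.07, and Clu (clusterin, a secreted chaperone) 0.21 and 0.09. The 1 higher gene, named after its value was seen, was A2m (an Lrp1 ligand that traps proteases), at 299 and 748 CPM at 1 month (log2 ratio 1.32, 1.02 to 1.62) and 444 and 617 CPM at 2 months (0.47, 0.42 to 0.53).

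Of 17 genes for adaptors of the receptor tails and for signal transducers that act with them or further downstream, 5 were tested at 1 month and 16 at 2 months. At either age 0 were apart, with medians of 0.34 and 0.11, beside 0.01 and 0.07 for all genes. Gulp1, an adaptor of engulfment receptors, had log2 ratios of -0.06 and 0.11, and Pafah1b1 (Lis1), which acts in the reelin pathway, 0.41 and -0.04. Dab1, the adaptor of Vldlr and Lrp8, was named after its value was seen. It had 13 and 10 UMIs at 1 month and 425 and 413 UMIs at 2 months (29.3 and 51.9 CPM), a log2 ratio of 0.82 (0.62 to 1.02) that stayed under the 2-fold rule.

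Among 14 chaperones, ubiquitin ligase and proteases of the receptors, 7 were tested at 1 month (1 higher, 0 lower, median 0.30) and 14 at 2 months (0 and 0, median -0.07). Over all genes 3.57% were higher and 2.41% lower at 1 month, and 3.08% and 0.985% at 2 months, with medians of 0.01 and 0.07. Lrpap1, a chaperone of receptors of this family, had log2 ratios of -0.05 and -0.07, and Psenen, a gamma-secretase subunit, -0.61 (-1.16 to -0.10) and -0.07. The higher gene, named after its value was seen, was Psen2, with 13 and 19 UMIs at 1 month (log2 ratio 1.18, 0.10 to 2.34). At 2 months it had 538 and 323 UMIs and a log2 ratio of 0.13 (-0.07 to 0.33).

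The 36 Wnt and agrin partners of Lrp4, Lrp5 and Lrp6 gave 7 tested at 1 month (1 higher, 0 lower, median 0.55) and 22 at 2 months (0 higher, 1 lower, median 0.13). The shares of all genes were 3.57% higher and 2.41% lower at 1 month and 3.08% and 0.985% at 2 months, and their medians 0.01 and 0.07. Sostdc1, a secreted Wnt antagonist that binds Lrp4 and Lrp6, had log2 ratios of -0.28 and -0.14, and Gsk3b 0.41 and 0.04. The 2 apart, named after their values were seen, were Lgr4 at 1 month (17 and 22 UMIs, log2 ratio 1.01, 0.04 to 2.03) and the Wnt receptor Fzd1 at 2 months (105 and 20 UMIs, -1.50, -2.30 to -0.83). At 2 months Lgr4 had 550 and 333 UMIs and a log2 ratio of 0.14 (-0.06 to 0.34).

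Of 8 further receptors with LDL class A repeats, 1 was tested at 1 month (0 apart, log2 ratio 0.59) and 6 at 2 months (1 higher, 0 lower, median 0.41), when 3.08% of all genes were higher, 0.985% lower and the median was 0.07. Lrp10 was at 100 and 99.4 CPM and Lrp12 at 19.7 and 20.9 CPM at 2 months. The higher one, named after its value was seen, was Ldlrad3, with 33 and 61 UMIs (log2 ratio 1.74, 1.12 to 2.41). Of the 14 VPS10 domain receptors and retromer partners of Sorl1, 5 and 12 were tested, 0 were apart at either age and the medians were 0.14 and 0.02, beside 0.01 and 0.07 for all genes. Sort1 (sortilin) had log2 ratios of 0.24 and -0.11 and Vps35, a retromer subunit, -0.30 and -0.19. Cubn, the partner of Lrp2 in absorptive epithelia, was the 1 of 2 co-receptors tested, at 2 months only, with 51 and 41 UMIs and a log2 ratio of 0.55 (-0.08 to 1.17).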

How the data were processed

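Single cells of RPE and choroid were profiled on the 10x Genomics platform. The deposited matrices hold raw UMI counts per gene and barcode, in whole numbers; per the file headers they were written by Cell Ranger 6.0.2 (1 month) and 7.0.1 (2 months), while Seurat 4.0, an older Cell Ranger (3.0) and the build mm9 appear in the submitters' processing notes. The sources used here do not say whether intronic reads were included. Gene IDs were matched to GENCODE GRCm38 (32158 of 32285) for positions. Kept barcodes (6555) were normalised to 10000 UMIs and clustered with scanpy 1.11.5 (2000 variable genes without the 9 members, 30 components, 15 neighbours, Leiden resolution 1.0, 31 clusters), and clusters were named from marker lists, with 6 left unnamed. The rule that left the cluster led by Gpx3 and Penk unnamed was written after the clusters were seen. Scrublet marked 26 barcodes (0.397%), removed here, which is too few to take as working, so doublets may remain. Counts were summed per class and library. Ratios have exact conditional intervals, levels exact Poisson and shares exact Clopper-Pearson intervals, of which all cover counting error only. Named genes were all members and, per list, those at least 2-fold apart alike at both ages or otherwise the 2 with most UMIs. The members, lists and several tests were chosen with earlier results of these data known. The ratio and its interval were tested on simulated data. These were Poisson draws, the model behind the interval, without spread between cells or libraries, so they cannot show how the interval fares under such spread.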

Additional observations from a re-analysis of the deposited data

Results flagged for a closer look

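For 2 members the difference between genotypes had opposite signs in 2 settings, each beyond counting error. The difference between settings was not tested, since each group is 1 library. Lrp2 in RPE-like cells had a log2 ratio of 0.96 at 1 month and -0.19 at 2 months. Lrp1 in RPE-like cells had 0.41 at 1 month and -0.26 at 2 months, and 0.86 in macrophage-like cells at 2 months. At 2 months the RPE-like value was -0.12 for Lrp1 and 0.02 for Lrp2 in Malat1-poor cells, and the ages differ in software version and in the clusters that hold their RPE-like cells, so age cannot be told apart from these.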

How the results depend on the processing

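No paired analysis was possible within an age because each group is 1 library. A fit over both ages with age as a block was not run, since age goes with the software version. The main values were recomputed under 18 alternatives, 4 of them chosen after seeing the data. Of 153 recomputed values for the 16 main results, 129 stayed within the counting interval or count margin, 24 moved and 0 reversed. At 1 month the number of members at least 2-fold apart in RPE-like cells went from 1 to 3 with at least 1000 genes per barcode (Vldlr, Lrp2 at 1.31 and Sorl1 at 1.55), and to 2 at Leiden resolution 2.0 (Vldlr and Lrp2) and in Malat1-poor cells (Vldlr and Sorl1). In Malat1-rich cells it stayed at 1, but the 1 member tested was Lrp1 (1.08). At 2 months the log2 ratio of Vldlr in RPE-like cells was -3.60 in Malat1-poor cells, -1.69 in Malat1-rich cells and -5.27 in cluster 0 alone. Its wild-type level was 197, 128 and 139 CPM and its knockout level 16.2, 39.5 and 2.41 CPM in these, and 194 CPM for the wild type at Leiden resolution 0.5. In Malat1-poor rods the level was 76.6 CPM for the knockout at 1 month and 127 CPM for the wild type at 2 months. The share of RPE-like cells with a Vldlr UMI depended on depth, at 20.6%, 31.1% and 4.23% when thinned to 2000 UMIs (wild type at 1 month, wild type and knockout at 2 months) and 23.7%, 68.5% and 20.5% with no thinning. At 2 months it was 12.2% in Malat1-rich wild-type cells, and 13.5% and 0.0414% in cluster 0.

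Directions of other members reversed in 8 of 230 values. At 1 month Lrp1 was at -0.02 in cluster 0 alone and Sorl1 at -0.29 in Malat1-rich cells. At 2 months Lrp1 was at 0.13 and Lrp6 at 0.01 in Malat1-rich cells, Lrp2 at 0.02, 0.16 and 0.23 in Malat1-poor cells, Malat1-rich cells and cluster 0, and Sorl1 at -0.22 in cluster 0. The cause was not tested. Leiden resolution 0.5 gave no RPE-like class at 1 month, and too few cells were left for the share in Malat1-rich knockout RPE at 1 month and for the split of rods at 2 months. Depth limits the 1-month RPE, where Lrp1b, Lrp4 and Lrp5 had 0 to 8 UMIs per library.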
